A study of Mus musculus with 4 samples.

Results

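The MHC class II antigen presentation genes were followed in bulk RNA-seq of mouse bone marrow cells labelled Lsk. They comprised 8 genes chosen by name, among 55399 genes in the deposited count table: H2-Aa, H2-Ab1, H2-Eb1, H2-DMa, H2-DMb1, H2-DMb2, Cd74 and Ciita. All 8 were found by their Ensembl identifiers and all 8 passed the low-count filter. The libraries were 2 labelled Ppm1bCKO (conditional knockout of Ppm1b, a metal-dependent protein phosphatase) and 2 labelled Ppm1bfl/fl (Ppm1b alleles flanked by loxP sites, the recombination sites that Cre cuts at). The sources used here do not give the Cre line, strain, age or sex, and name no treatment. The labels did not say whether libraries came from separate mice or from pools, so p-values measure the spread between these 4 libraries only, which may be technical. The comparison asks how the class II genes stood in cells of each genotype.

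MHC class II molecules are pairs of an alpha and a beta chain that carry peptides from endocytosed proteins to the surface, where CD4 T cells read them. New pairs are held by the invariant chain, which is cut away in endosomes until a short fragment is left, and the chaperone DM then exchanges that fragment for peptide. The genes are most active in B cells, dendritic cells and activated macrophages, and CIITA, a co-activator that does not bind DNA itself, sets their level by docking on factors that bind the X and Y boxes of their promoters. In bone marrow, B-lineage cells, dendritic cells and their late precursors are the usual carriers of class II, and mature cells of these kinds are normally removed from a lineage-negative sort.

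The promoters of 4 class II genes are shown because their X and Y boxes are the sites through which CIITA acts, and because the H2-DMb1 and H2-DMb2 promoters resemble each other closely. The sequences are from RefSeq (GRCm38.p6), 5′ to 3′ on the gene's strand, and cover 140 to 31 bases before the annotated start. They lie at chr17:34305727-34305836 (plus strand) for H2-Eb1, chr17:34153051-34153160 (plus) for H2-DMb1, chr17:34145109-34145218 (plus) for H2-DMb2 and chr17:34287854-34287963 (minus) for H2-Aa. Capitals mark AACNGATG (an X box core), ATTGG (a Y box core, the inverted CCAAT box, which reads CCAAT where it lies on the opposite strand) and TGACGTCA (the cyclic AMP response element, CRE).
H2-Eb1: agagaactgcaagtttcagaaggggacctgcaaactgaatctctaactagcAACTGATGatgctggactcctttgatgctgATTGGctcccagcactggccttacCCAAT
H2-DMb1: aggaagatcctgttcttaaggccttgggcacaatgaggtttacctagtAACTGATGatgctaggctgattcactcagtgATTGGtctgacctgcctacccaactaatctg
H2-DMb2: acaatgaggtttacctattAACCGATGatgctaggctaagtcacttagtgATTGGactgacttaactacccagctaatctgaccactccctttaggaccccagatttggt
H2-Aa: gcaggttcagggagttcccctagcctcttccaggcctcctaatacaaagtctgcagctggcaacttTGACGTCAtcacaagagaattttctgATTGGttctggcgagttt

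The 3 motifs were searched on both strands in windows of 300 bases, 250 before and 50 after each start, and were chosen after these promoters had been looked at. H2-Eb1, H2-DMb1 and H2-DMb2 each held an X box core followed by a Y box core, and so did H2-Eb2, a class II beta gene outside the 8. The X box core began at position -89 in H2-Eb1, at -92 in H2-DMb1 and at -121 in H2-DMb2, counted from the start. H2-Aa held a CRE at -74 and a Y box core at -48, and no match to AACNGATG. ATTGG alone occurred in 37.4% of 32851 mouse promoter windows, AACNGATG in 2.32% and TGACGTCA in 1.79%. The pair of X box core and Y box core, 5 to 40 bases apart, occurred in 16 windows (0.0487%), 4 of them among the 9 windows of class II genes. A promoter window was at hand for 5 of the 8 genes. The 2 windows of H2-DMa held no such pair. Both lie inside the annotated gene (chromosome 17, 34119541 to 34139101), and other starts of H2-DMa were not searched.

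**Figure D1:**
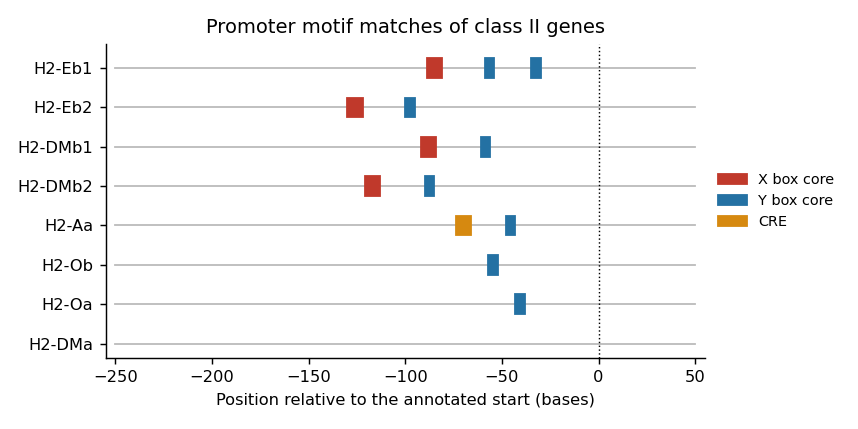
Motif matches in the promoter windows of class II genes, drawn by position relative to the annotated start in bases. Each bar is 1 match, and for H2-DMa the first of its 2 windows is drawn, which held none. Both H2-DMa windows lie inside the annotated gene, and other starts of H2-DMa were not searched. The X box core lies upstream of the Y box core in H2-Eb1, H2-Eb2, H2-DMb1 and H2-DMb2.

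The genotype labels were first checked against Ppm1b itself. Ppm1b (chromosome 17, 84956741 to 85023991, mm10) stood at 84.3 and 121 CPM (reads scaled to library size) in the libraries labelled Ppm1bCKO, against 80.8 and 82.5 CPM in the Ppm1bfl/fl libraries. Its log2 fold change was 0.33 ± 0.20 (SE; edgeR adjusted p = 0.717). It was 0.56 without Ppm1bCKO replicate 1 and 0.05 without Ppm1bCKO replicate 2. Its transcript was thus not lower in the libraries labelled Ppm1bCKO. A count over all exons need not fall when a few exons are deleted, so each direction below rests on the labels. Total counts ran from 22393973 to 24856083 in the Ppm1bCKO libraries and from 26002277 to 30045382 in the Ppm1bfl/fl libraries. Of the markers that define the Lsk fraction, Kit (a cytokine receptor) had 187 and 121 CPM in Ppm1bCKO libraries and 228 and 194 CPM in Ppm1bfl/fl libraries. Ly6a, which encodes Sca-1, had 17.7 and 22.2 CPM in Ppm1bCKO libraries and 22.2 and 18.3 CPM in Ppm1bfl/fl libraries. Markers of mature blood cells, listed further on with the class II genes, were detected in all 4 libraries too.

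Class II transcripts were present in every library and 0 of the 8 genes passed the edgeR threshold (adjusted p under 0.05), where 0.372% of all 16393 tested genes did, 0.061% higher and 0.311% lower. DESeq2 (1.2% of all genes called) and limma-voom (0.311%) also called 0 of the 8. At an unadjusted edgeR p under 0.05 there was 1 gene of the 8, H2-DMb2, where 6.44% of tested genes stood under that value. The 8 genes took up 0.0566% (95% Wilson interval 0.0556 to 0.0576) and 0.0756% (0.0745 to 0.0767) of all counts in Ppm1bCKO replicates 1 and 2. In Ppm1bfl/fl replicates 1 and 2 they took up 0.0640% (0.0630 to 0.0650) and 0.0629% (0.0620 to 0.0638). These intervals cover the counting error of reads within a library only, and not the spread between libraries. PCR copies were not marked by molecular identifiers, and the intervals take each read as independent. The Ppm1bCKO libraries were thus the lowest and the highest of the 4. In bulk RNA, fewer cells of a type and less RNA per cell cannot be told apart.

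The classical alpha and beta chains come first. H2-Aa, the alpha chain of I-A (ENSMUSG00000036594.15, chromosome 17, 34282744 to 34287823), had 70.0 and 92.4 CPM in Ppm1bCKO libraries, against 70.3 and 68.4 CPM in Ppm1bfl/fl libraries. Ppm1bCKO replicate 2 stood above the other libraries, replicate 1 lay between the Ppm1bfl/fl values, and the groups overlapped. The log2 fold change was 0.23 ± 0.18 (95% interval -0.19 to 0.65; edgeR adjusted p = 0.742).

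H2-Ab1, the beta chain that pairs with H2-Aa (ENSMUSG00000073421.6, chromosome 17, 34257689 to 34269419), had 90.5 and 119 CPM in Ppm1bCKO libraries, against 101 and 106 CPM in Ppm1bfl/fl libraries. The Ppm1bCKO libraries lay on either side of both Ppm1bfl/fl libraries. Its mean was 105 ± 19.96 CPM in Ppm1bCKO and 104 ± 4.05 CPM in Ppm1bfl/fl libraries (SD, n = 2 each), a log2 fold change of 0.01 ± 0.18 (95% interval -0.40 to 0.43; edgeR adjusted p = 0.985).

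H2-Eb1, the beta chain of I-E (ENSMUSG00000060586.11, chromosome 17, 34305867 to 34316674), had 50.4 and 62.5 CPM in Ppm1bCKO libraries, against 51.9 and 55.3 CPM in Ppm1bfl/fl libraries. Here too the Ppm1bCKO libraries lay outside the Ppm1bfl/fl pair on both sides, and the log2 fold change was 0.07 ± 0.18 (95% interval -0.33 to 0.48; edgeR adjusted p = 0.905). The I-E alpha chain is a pseudogene in some mouse strains, C57BL/6 among them. Its entry here, H2-Ea-ps, had 2 and 3 counts in Ppm1bCKO libraries and 0 and 0 counts in Ppm1bfl/fl libraries, at or under the 3 counts that a count of 0 allows (0.0998 to 0.134 CPM over the 4 libraries). It was not tested and no fold is given.

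Cd74 encodes the invariant chain, which holds new class II pairs and steers them to endosomes (ENSMUSG00000024610.15, chromosome 18, 60803848 to 60812652). It had 230 and 366 CPM in Ppm1bCKO libraries, against 282 and 281 CPM in Ppm1bfl/fl libraries. The Ppm1bfl/fl libraries differed by little, the Ppm1bCKO libraries lay well below and well above them, and the log2 fold change was 0.08 ± 0.23 (95% interval -0.44 to 0.61; edgeR adjusted p = 0.921). Per kilobase and relative to the summed H2-Aa, H2-Ab1 and H2-Eb1, Cd74 stood at 1.72 and 2.12 in Ppm1bCKO libraries and at 1.99 and 1.90 in Ppm1bfl/fl libraries, so these ratios overlapped as well.

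**Figure D2:**
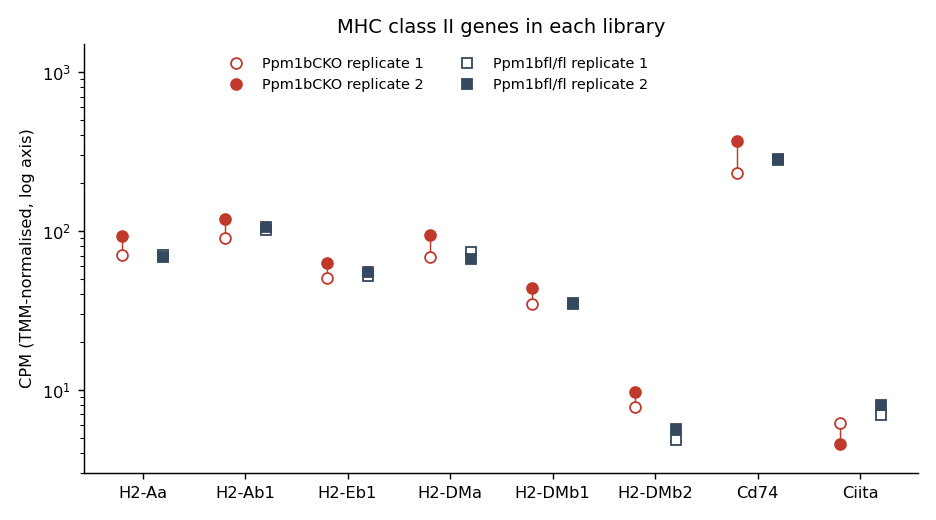
TMM-normalised CPM (log axis) of the 8 class II genes in each library, with Ppm1bCKO libraries as circles to the left of the Ppm1bfl/fl libraries as squares; a line joins the 2 libraries of a genotype. For H2-Ab1, H2-Eb1 and Cd74 the Ppm1bCKO libraries lie on both sides of the Ppm1bfl/fl pair, whereas for H2-DMb2 (7.83 and 9.73 against 4.85 and 5.70 CPM) and Ciita (6.20 and 4.59 against 6.91 and 7.99 CPM) the genotypes do not overlap.

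H2-DMa encodes the alpha chain of the peptide-exchange chaperone DM (ENSMUSG00000037649.10, chromosome 17, 34119541 to 34139101). It had 68.4 and 93.7 CPM in Ppm1bCKO libraries, against 73.3 and 67.0 CPM in Ppm1bfl/fl libraries. Ppm1bCKO replicate 1 lay between the Ppm1bfl/fl libraries and replicate 2 above both, with a log2 fold change of 0.21 ± 0.19 (95% interval -0.23 to 0.65; edgeR adjusted p = 0.763). Its exons share 360 bases with Brd2 on the opposite strand, and the sources used here do not say whether strand was used in counting.

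H2-DMb1, the more abundant of the DM beta chain genes (ENSMUSG00000079547.4, chromosome 17, 34153072 to 34160230), had 34.5 and 43.5 CPM in Ppm1bCKO libraries, against 35.2 and 34.7 CPM in Ppm1bfl/fl libraries. The genotypes overlapped, since Ppm1bCKO replicate 1 was the lowest library and replicate 2 the highest, and the log2 fold change was 0.16 ± 0.18 (95% interval -0.26 to 0.58; edgeR adjusted p = 0.802).

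H2-DMb2, the second DM beta chain gene (ENSMUSG00000037548.15, chromosome 17, 34143307 to 34151555), had 7.83 and 9.73 CPM in Ppm1bCKO libraries, against 4.85 and 5.70 CPM in Ppm1bfl/fl libraries. Both Ppm1bCKO libraries stood above both Ppm1bfl/fl libraries. The mean was 8.78 ± 1.35 CPM in Ppm1bCKO and 5.28 ± 0.61 CPM in Ppm1bfl/fl libraries (SD, n = 2 each). The log2 fold change was 0.73 ± 0.26 (95% interval 0.15 to 1.32; edgeR adjusted p = 0.685). The gene did not pass the test over all genes, and was 1 of 1056 genes with an unadjusted edgeR p under 0.05.

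Reads of the DM beta genes were split between them in unequal parts. H2-DMb2 held 18.5% (95% Wilson interval 16.2 to 21.1; 178 of 962 reads) and 18.3% (16.3 to 20.5; 231 of 1263) of the H2-DMb1 and H2-DMb2 reads in Ppm1bCKO libraries. In Ppm1bfl/fl libraries it held 12.1% (10.3 to 14.2; 129 of 1067) and 14.1% (12.3 to 16.2; 172 of 1220). Both Ppm1bCKO shares were above both Ppm1bfl/fl shares, with means of 18.4% ± 0.15 and 13.1% ± 1.42 (SD, n = 2 each) that differed by 5.30 percentage points. An exact two-sided permutation test gave p = 0.333, the smallest that 2 against 2 libraries allow. This share uses no library size, so it is free of the scaling between libraries. A transcript of each gene, 1404 and 1424 bases long, matched at 88.1% of 1270 aligned positions, and 10.3% of the 100-base stretches of H2-DMb2 exons occur in H2-DMb1 as well. The sources used here do not give the read length or how reads shared by several genes were counted, so the split of reads between this pair is uncertain. Summed into 1 row, the pair gave 0.25 as its log2 fold change (edgeR adjusted p = 0.725).

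**Figure D3:**
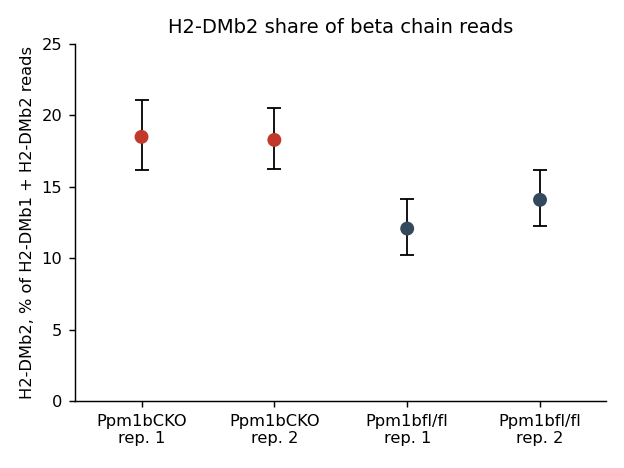
H2-DMb2 reads as a percentage of all H2-DMb1 and H2-DMb2 reads in each library (points), with 95% Wilson intervals (bars), Ppm1bCKO libraries on the left and Ppm1bfl/fl libraries on the right. The Ppm1bCKO libraries stood at 18.5% and 18.3%, above the Ppm1bfl/fl libraries at 12.1% and 14.1%.

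Ciita, the co-activator of the group (ENSMUSG00000022504.10, chromosome 16, 10480059 to 10528418), had 6.20 and 4.59 CPM in Ppm1bCKO libraries, against 6.91 and 7.99 CPM in Ppm1bfl/fl libraries. Both Ppm1bCKO libraries stood below both Ppm1bfl/fl libraries. The mean was 5.40 ± 1.14 CPM in Ppm1bCKO and 7.45 ± 0.76 CPM in Ppm1bfl/fl libraries (SD, n = 2 each), and the log2 fold change was -0.47 ± 0.27 (95% interval -1.08 to 0.15; edgeR adjusted p = 0.717), so the difference did not pass the test. Ciita is transcribed from several promoters that serve different cell types, and counts per gene do not tell them apart. Its exons share 329 bases with Dexi on the opposite strand.

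H2-DMb2 and Ciita were the 2 of the 8 genes whose genotypes did not overlap, one higher and one lower in Ppm1bCKO libraries, which is 25% of the 8 beside 41.1% of all tested genes (20.6% in each direction). A positive log2 fold change was found for 7 of the 8 genes, all but Ciita, beside 49.6% of all tested genes. The median was 0.12 over the 8, beside -0.003 over all tested genes. Per kilobase, Ciita stood at 0.817% and 0.469% of the summed classical chains in Ppm1bCKO libraries, against 0.859% and 0.953% in Ppm1bfl/fl libraries. The value for Ppm1bCKO replicate 1 lay close to the lower Ppm1bfl/fl value, and that for replicate 2 far below.

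Levels of different genes were compared as CPM per kilobase of exonic length. Cd74 was first in the order, with a mean level of 178 CPM per kilobase in Ppm1bCKO and 168 CPM per kilobase in Ppm1bfl/fl libraries. H2-Ab1 followed at 40.7 and 40.3, and H2-Eb1 at 29.0 and 27.6 CPM per kilobase, Ppm1bCKO named first. The steps between these 3 genes were larger than the spread, since the lowest library of Cd74 was above the highest of H2-Ab1, and the lowest of H2-Ab1 above the highest of H2-Eb1. H2-Eb1 was above the next 3 genes within each library, although its range over the libraries overlapped that of H2-DMa. H2-DMa (23.5 and 20.3), H2-DMb1 (23.2 and 20.8) and H2-Aa (21.4 and 18.3 CPM per kilobase) overlapped over the libraries. Within each library H2-Aa was the lowest of these 3 genes, whereas H2-DMa and H2-DMb1 changed places between libraries. H2-DMb2 lay below these 3 genes at 5.03 and 3.02 CPM per kilobase, and Ciita was last at 0.566 and 0.782. Exonic length here is the union over all annotated transcripts, which lowers the value of a gene with long alternative exons.

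Within the I-A pair, the alpha chain level relative to the beta chain level differed in one direction. Per kilobase, H2-Aa per H2-Ab1 was 0.523 and 0.527 in Ppm1bCKO libraries, against 0.472 and 0.435 in Ppm1bfl/fl libraries. H2-Eb1 per H2-Ab1 was 0.735 and 0.695 in Ppm1bCKO libraries, against 0.680 and 0.687 in Ppm1bfl/fl libraries. Neither ratio overlapped between genotypes, and the exact two-sided permutation test gave p = 0.333 for each, the smallest value possible here. Ratios of H2-DMa did overlap. Per summed classical chains it stood at 0.249 and 0.265 in Ppm1bCKO libraries, against 0.252 and 0.221 in Ppm1bfl/fl libraries. Per summed H2-DMb1 and H2-DMb2 it stood at 0.794 and 0.864, against 0.895 and 0.812.

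For most of the 8 genes the same library stood highest. Ppm1bCKO replicate 2 was the highest library for 7 of the 8 genes, beside 36.7% of all tested genes, and Ciita was highest in Ppm1bfl/fl replicate 2. The same library differed from the others by gene length: genes of up to 2603 exonic bases lay at a median of 0.21 above their mean over the libraries on the log2 scale, and genes over 5219 bases at -0.16. In the other 3 libraries the medians of the short genes lay between -0.07 and -0.06. Ciita, with 9535 exonic bases, is the longest of the 8, and the other 7 have 1679 to 3798 bases. H2-Aa (3798) and H2-DMa (3448 bases) lie between the length limits above, where tested genes had a median of 0.03 in Ppm1bCKO replicate 2. H2-Aa and H2-DMa themselves lay at 0.31 and 0.32 in that library. The part of gene length in the values of these genes was not tested.

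Leaving out either Ppm1bCKO library changed calls or signs. Without Ppm1bCKO replicate 1, edgeR called 4 of the 8 genes higher, H2-Aa (log2 fold change 0.41, adjusted p = 0.0323), H2-DMa (0.42, adjusted p = 0.0349), H2-DMb2 (0.88, adjusted p = 0.0316) and Cd74 (0.38, adjusted p = 0.0462), but it then called 3336 of 17177 genes in all. Without Ppm1bCKO replicate 2 it called 0 of the 8, 6 of the 8 had a negative log2 fold change, and the median was -0.06. With the trend against gene length removed from each library, an alternative added after the data were seen, 5 of the 8 were negative, the median was -0.04 and 0 were called. The positive sign of most class II genes is therefore not kept under these settings. H2-Aa and H2-DMb2 were positive and Ciita negative in each of the fits run. The size still moved: Ciita lay at -0.70 without Ppm1bCKO replicate 1 and at -0.27 without Ppm1bCKO replicate 2, H2-DMb2 at 0.88 and 0.57, and H2-Aa at 0.41 and 0.01.

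**Figure D4:**
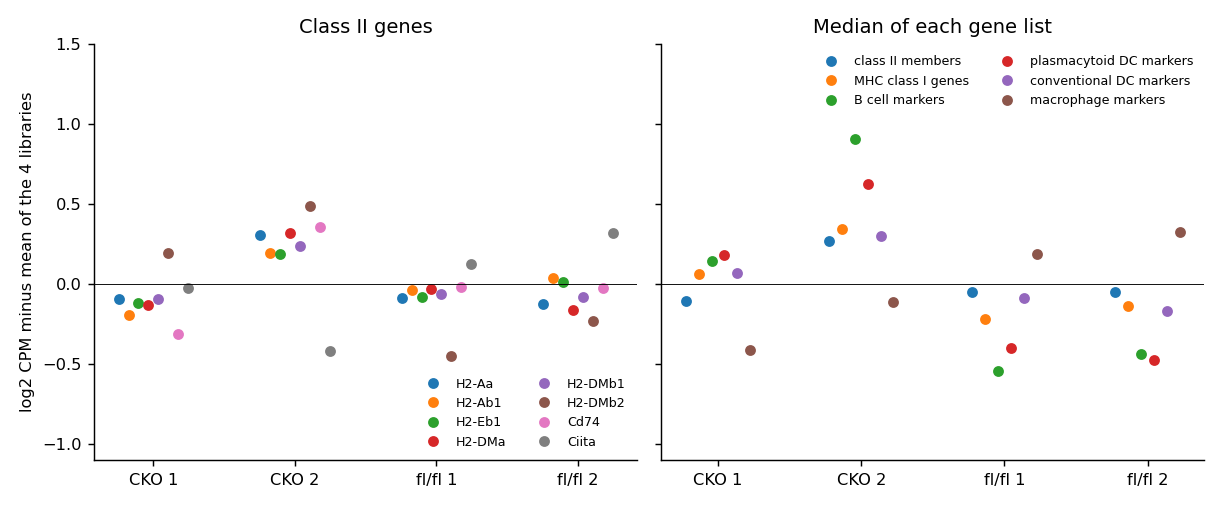
Log2 CPM of each class II gene minus its mean over the 4 libraries (left), and the median of the same quantity over each gene list (right), per library; each point is 1 gene or 1 list. Class II genes other than Ciita peak in Ppm1bCKO replicate 2, where B cell markers have a median of 0.91 and plasmacytoid dendritic cell markers 0.63.

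Further genes of the class II region were tested with them. H2-Ob, the beta chain of DO, which holds DM in check and is best known from B cells, had 23.7 and 26.5 CPM in Ppm1bCKO libraries, against 17.7 and 17.2 CPM in Ppm1bfl/fl libraries. The genotypes did not overlap, with a log2 fold change of 0.53 ± 0.19 that did not pass the test (edgeR adjusted p = 0.715). Its partner H2-Oa had 6.47 and 7.46 CPM in Ppm1bCKO libraries, against 6.99 and 5.94 CPM in Ppm1bfl/fl libraries, values that overlapped (log2 fold change 0.11 ± 0.25). H2-Eb2, a beta gene of low expression, had 0.53 and 1.14 CPM in Ppm1bCKO libraries and 1.80 and 0.80 CPM in Ppm1bfl/fl libraries. DO and DM act against each other, and H2-Ob per H2-DMb1 per kilobase was 0.215 and 0.191 in Ppm1bCKO libraries, against 0.157 and 0.154 in Ppm1bfl/fl libraries, without overlap (exact two-sided permutation p = 0.333, the smallest possible). Of the 3 tested genes of this list, 0 passed the threshold.

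Next came the factors that bind the X and Y boxes and carry CIITA. Of 7 such genes, 0 passed the edgeR threshold, 0 had an unadjusted p under 0.05, DESeq2 and limma-voom called 0, and the median log2 fold change was 0.02. Among the subunits of RFX, which binds the X box, Rfx5 had a log2 fold change of -0.24 ± 0.21, Rfxap of 0.34 ± 0.23 and Rfxank of -0.07 ± 0.20. The subunits of NF-Y, which binds the Y box, had log2 fold changes of -0.17 (Nfya), 0.30 (Nfyb) and 0.02 (Nfyc). Creb1, which binds CRE-like sites, had 0.07 ± 0.16.

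Genes that act on Ciita transcription, or on the interferon-gamma signal that induces it, included 0 called genes of 11. Their median log2 fold change was 0.14, and 4 had an unadjusted edgeR p under 0.05, beside 6.44% of all tested genes. Prdm1, Irf4 and Irf1 were among these 4, and the remaining gene is not named here. Irf1, which binds the interferon-responsive Ciita promoter, had 128 and 146 CPM in Ppm1bCKO libraries, against 101 and 96.2 CPM in Ppm1bfl/fl libraries. Both Ppm1bCKO libraries were above both Ppm1bfl/fl libraries, and the log2 fold change of 0.47 ± 0.16 did not pass the test (edgeR adjusted p = 0.650). Prdm1 encodes Blimp-1, which represses Ciita in plasma cells, and had 5.41 and 5.98 CPM in Ppm1bCKO libraries, against 12.1 and 9.81 CPM in Ppm1bfl/fl libraries. Its log2 fold change of -0.94 ± 0.24 did not pass the test (edgeR adjusted p = 0.366). Irf4, a factor of activated B cells and plasma cells, had 102 and 143 CPM in Ppm1bCKO libraries, against 83.6 and 76.3 CPM in Ppm1bfl/fl libraries (log2 fold change 0.62 ± 0.20, edgeR adjusted p = 0.619). Irf8 and Spi1, factors of the myeloid and B lineages, had log2 fold changes of 0.14 and 0.11. Ifngr1 and Ifngr2, the chains of the interferon-gamma receptor, had 0.09 and 0.20. Socs1, an inhibitor of cytokine signalling, had 4.27 and 9.82 CPM in Ppm1bCKO libraries, against 4.58 and 3.48 CPM in Ppm1bfl/fl libraries (log2 fold change 0.81 ± 0.40, edgeR adjusted p = 0.717). The Socs1 values overlapped, and its log2 fold change was 1.28 without Ppm1bCKO replicate 1 (edgeR adjusted p = 0.0071) and 0.08 without Ppm1bCKO replicate 2.

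The enzymes that cut antigens and the invariant chain came next. Of 9 processing genes, 0 passed the threshold, and the median log2 fold change was 0.03. Ctsl and Ctsh, 2 of the 9, had an unadjusted edgeR p under 0.05, beside 6.44% of all tested genes. Ctss encodes cathepsin S, which makes the last cuts in the invariant chain of B cells and dendritic cells, and had 211 and 276 CPM in Ppm1bCKO libraries, against 194 and 201 CPM in Ppm1bfl/fl libraries. The genotypes did not overlap for Ctss, whose log2 fold change was 0.30 ± 0.18 (edgeR adjusted p = 0.717). Ctsl, which does this in thymic epithelium, had a log2 fold change of 0.43 ± 0.16 and Ctsh, an aminopeptidase, of 0.45 ± 0.18 (edgeR adjusted p = 0.717 for each). Ifi30, a thiol reductase of endosomes, had a log2 fold change of 0.25 ± 0.19, and Lgmn, an asparaginyl endopeptidase, of -0.13 ± 0.22.

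Co-stimulatory molecules, which give T cells the signal that goes with class II, and regulators of class II turnover numbered 6. Of these, 0 passed the threshold, and the median log2 fold change was 0.49. An unadjusted edgeR p under 0.05 was found for 3 of the 6, beside 6.44% of all tested genes. Cd83, which stabilises class II at the surface, had 16.4 and 27.8 CPM in Ppm1bCKO libraries, against 12.0 and 11.8 CPM in Ppm1bfl/fl libraries. Cd40, the receptor for CD40 ligand on T cells, had 5.19 and 6.45 CPM in Ppm1bCKO libraries, against 3.57 and 2.75 CPM in Ppm1bfl/fl libraries. Both genes, and Cd86, a ligand of CD28, had both Ppm1bCKO values above both Ppm1bfl/fl values, with log2 fold changes of 0.89 ± 0.27, 0.88 ± 0.29 and 0.52 ± 0.22 (edgeR adjusted p = 0.543, 0.646 and 0.717).

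DESeq2 and limma-voom called 0 genes of the locus, Ciita regulator, processing and co-stimulation lists. Without a low-count filter edgeR called 1 of them, Cd83 (log2 fold change 0.89, adjusted p = 0.0246). Without Ppm1bCKO replicate 1, where 3336 genes were called in all, edgeR called 1 locus gene, H2-Ob, higher, 4 Ciita regulators higher and 1 lower, 4 processing genes higher, 3 co-stimulation genes higher and 2 of the promoter-binding factors higher. Without any other library it called 0 of these lists.

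**Figure D5:**
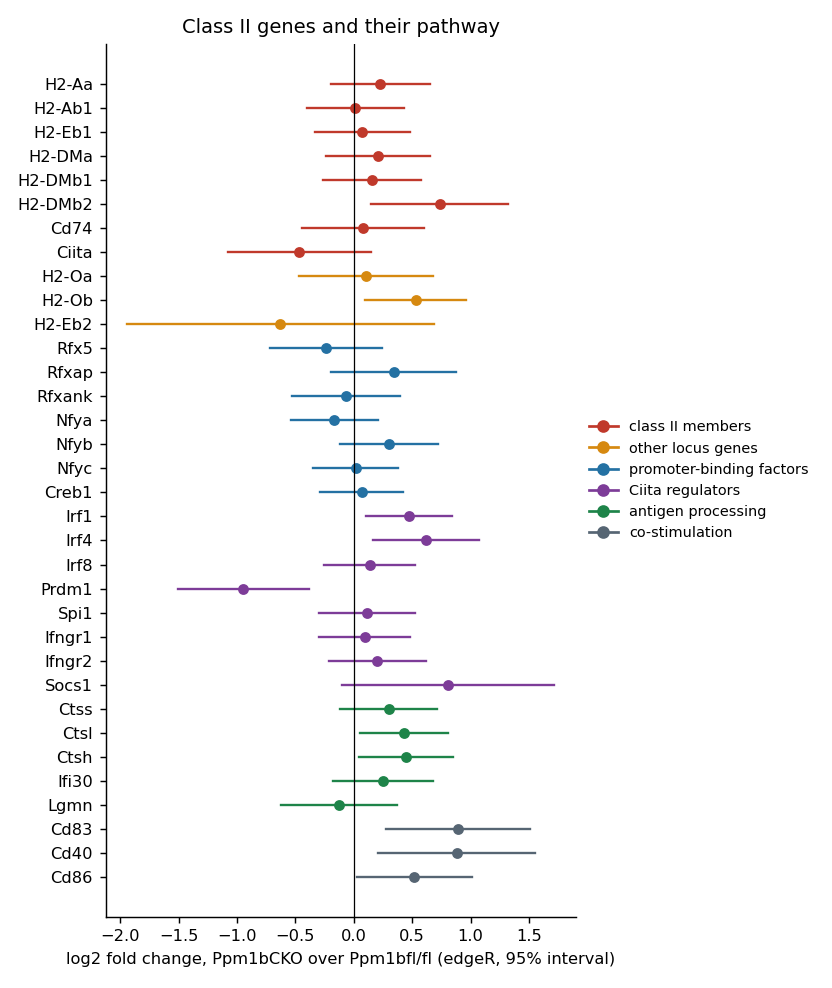
Log2 fold change of Ppm1bCKO over Ppm1bfl/fl libraries for the class II genes and named genes of their pathway (points), with 95% edgeR intervals (bars), coloured by list. H2-DMb2 lies at 0.73 and Ciita at -0.47, and 0 of the genes drawn passed the adjusted threshold.

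Markers of the cells that usually carry class II also differed between the libraries, and their part in the class II values was not tested. The 13 B cell markers had a summed level of 490 and 851 CPM in Ppm1bCKO libraries, against 354 and 355 CPM in Ppm1bfl/fl libraries. All 13 had positive log2 fold changes (median 1.09); 12 had both Ppm1bCKO libraries above both Ppm1bfl/fl libraries, beside 20.6% of all tested genes, and 10 had an unadjusted edgeR p under 0.05, beside 6.44%. Over the 4 libraries edgeR and limma-voom called 0 of them and DESeq2 called 6 higher, beside 1.2% of all genes. Leaving out 1 library, the median was 1.53 without Ppm1bCKO replicate 1 and 0.70 without Ppm1bCKO replicate 2. It was 1.09 without Ppm1bfl/fl replicate 1 and 1.23 without Ppm1bfl/fl replicate 2. Pax5, the factor that fixes B cell identity, had 67.2 and 99.1 CPM in Ppm1bCKO libraries, against 35.1 and 42.8 CPM in Ppm1bfl/fl libraries (log2 fold change 1.09 ± 0.22, edgeR adjusted p = 0.152). The summed level of the classical class II chains was 211 and 274 CPM in Ppm1bCKO libraries and 223 and 230 CPM in Ppm1bfl/fl libraries, which overlapped. Per summed B cell marker, they stood at 0.431 and 0.322 in Ppm1bCKO libraries, against 0.629 and 0.649 in Ppm1bfl/fl libraries.

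Plasmacytoid dendritic cell markers, 9 in number, summed to 510 and 665 CPM in Ppm1bCKO libraries, against 388 and 349 CPM in Ppm1bfl/fl libraries, with a median log2 fold change of 1.02. For 7 of the 9 both Ppm1bCKO libraries were above both Ppm1bfl/fl libraries (20.6% of all tested genes), and 6 had an unadjusted edgeR p under 0.05 (6.44% of all tested genes). Over the 4 libraries edgeR and limma-voom called 0 and DESeq2 called 5 higher. Leaving out 1 library, the median was 1.17 without Ppm1bCKO replicate 1 and 0.55 without Ppm1bCKO replicate 2. It was 1.27 without Ppm1bfl/fl replicate 1 and 0.97 without Ppm1bfl/fl replicate 2. Siglech, a surface lectin of these cells, had 47.4 and 50.4 CPM in Ppm1bCKO libraries, against 24.9 and 19.96 CPM in Ppm1bfl/fl libraries (log2 fold change 1.12 ± 0.19, edgeR adjusted p = 0.0638). Siglech passed once the length trend was removed (edgeR adjusted p = 0.0277).

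The 10 conventional dendritic cell markers summed to 459 and 657 CPM in Ppm1bCKO libraries and to 452 and 420 CPM in Ppm1bfl/fl libraries. The highest single marker made up most of each sum, at 337 and 521 CPM in Ppm1bCKO libraries and 349 and 319 CPM in Ppm1bfl/fl libraries. By edgeR, DESeq2 and limma-voom 0 of the 10 passed, and 2 had an unadjusted edgeR p under 0.05, beside 6.44% of all tested genes. Of the 10, 8 had positive log2 fold changes, and the median was 0.44. For 4 of them both Ppm1bCKO libraries were above both Ppm1bfl/fl libraries, beside 20.6% of all tested genes. Ccr7, the chemokine receptor that leads mature dendritic cells to lymph nodes, had 29.4 and 37.0 CPM in Ppm1bCKO libraries, against 21.8 and 15.2 CPM in Ppm1bfl/fl libraries (log2 fold change 0.85 ± 0.23, edgeR adjusted p = 0.435). It passed without a low-count filter (edgeR adjusted p = 0.0179). The median of the 10 was 0.66 without Ppm1bCKO replicate 1 and 0.15 without Ppm1bCKO replicate 2. Zbtb46, a factor of the conventional dendritic lineage, had 17.5 and 18.7 CPM in Ppm1bCKO libraries and 18.5 and 20.6 CPM in Ppm1bfl/fl libraries, so these values overlapped.

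The 13 macrophage markers had the opposite sign, with sums of 736 and 844 CPM in Ppm1bCKO libraries, against 1077 and 1121 CPM in Ppm1bfl/fl libraries. All 13 log2 fold changes were negative (median -0.47); 11 had both Ppm1bCKO libraries below both Ppm1bfl/fl libraries, beside 20.6% of all tested genes, and 5 had an unadjusted edgeR p under 0.05, beside 6.44%. Over the 4 libraries edgeR and limma-voom called 0 and DESeq2 called 4 lower. Leaving out 1 library, the median was -0.24 without Ppm1bCKO replicate 1 and -0.83 without Ppm1bCKO replicate 2. It was -0.54 without Ppm1bfl/fl replicate 1 and -0.40 without Ppm1bfl/fl replicate 2. Mrc1, the mannose receptor, had 38.1 and 33.7 CPM in Ppm1bCKO libraries, against 64.3 and 71.2 CPM in Ppm1bfl/fl libraries (edgeR adjusted p = 0.108). Plasma cells, which switch Ciita off, had 7 markers that came to 3991 and 5372 CPM in Ppm1bCKO libraries, against 21598 and 12943 CPM in Ppm1bfl/fl libraries, mainly immunoglobulin transcripts. Of these, edgeR called 1, Igha (the IgA heavy chain constant gene), which fell. Limma-voom called 1 and DESeq2 3 lower, and edgeR called 0 of the 7 without Ppm1bCKO replicate 1 and 0 without Ppm1bCKO replicate 2. The 10 markers of Lsk cells summed to 529 and 469 CPM in Ppm1bCKO libraries and to 626 and 510 CPM in Ppm1bfl/fl libraries. Of these, 0 passed the threshold and 0 had an unadjusted edgeR p under 0.05. Negative log2 fold changes were found for 8 of the 10 (median -0.24). Without 1 library the median ran from -0.48 to 0.22. No marker of any of these lists was at 0 in a library.

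The genes whose pattern over the 4 libraries was most like that of the class II genes were ranked by root mean square distance of centred log2 CPM to the mean profile of the class II genes with an average log2 CPM of at least 3, 6 in number, which leaves out H2-DMb2 and Ciita. Of 9467 candidates, the nearest were Mzt2 (distance 0.0091 on the log2 scale), Epdr1 (0.0095), Kxd1 (0.0116) and Kdelr1 (0.0133), followed by Cdk2ap1, Ntpcr, Slc35b2 and Polr3gl. Mzt2 had 15.1 and 20.1 CPM in Ppm1bCKO libraries, against 16.3 and 16.0 CPM in Ppm1bfl/fl libraries, again highest in Ppm1bCKO replicate 2. Among the class II genes themselves, H2-DMb1 lay nearest to the mean profile at 0.038, Cd74 at 0.093, H2-DMb2 at 0.30 and Ciita at 0.41. With 4 libraries this likeness describes the profile only.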

How the data were processed

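Whole-number gene counts of 4 libraries, as deposited by the authors and not normalised, were analysed. Per the labels' protocols, total RNA of pre-sorted cells was extracted with TRIzol and made into TruSeq libraries. Per the submitters' processing notes, HISAT2 2.2.0, featureCounts 2.0.1 and Trim Galore 0.6.7 were used with build mm10; the sources used here do not give the strand setting, annotation release or multi-mapping treatment. Of 55399 identifiers, 55139 matched a GENCODE annotation of the same build and 260 did not.

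The main test was edgeR 4.0.16 under R 4.3.3 (filterByExpr with a minimum count of 10 and total of 15, TMM factors, robust quasi-likelihood test, no covariates, all 4 libraries), with Benjamini-Hochberg adjustment over 16393 genes and a threshold of 0.05. CPM use TMM factors, and log2 fold changes (Ppm1bCKO over Ppm1bfl/fl) carry standard errors. The biological coefficient of variation was 19.1%. Replicates differed beyond sampling noise (chi-square per degree of freedom 53.5 in the Ppm1bCKO and 25.5 in the Ppm1bfl/fl pair). Alternatives were DESeq2 1.42.0 and its size factors, limma-voom (limma 3.58.1), other filters, a replicate block, immunoglobulin genes left out, the H2-DMb pair summed, each library left out and, added after the data were seen, a lowess length trend (span 0.3) removed. The fit was checked on simulated counts.

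Class II genes and Ppm1b were named whatever their p; of other lists, members past the threshold and up to 4 with the smallest p, or any member of the locus, promoter-factor, processing and Ciita regulator lists; and the 8 genes of most similar profile, leaving out immunoglobulin, T cell receptor and predicted genes. Values are given for 8 of the 11 genes of the Ciita regulator list. Kit, Ly6a and Zbtb46 were named in addition as defining markers. The class II genes and all lists were chosen with earlier results of these data known.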

Additional observations from a re-analysis of the deposited data

How the results depend on the processing

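The count of 0 class II genes past the threshold held under each alternative with all 4 libraries; over the fits leaving out 1 library it ran from 0 to 4, and the median log2 fold change of the 8 from -0.06 to 0.34. In those fits the lone library of a genotype is assumed to vary like the other genotype. The number of genes called in all, 61, became 188 with DESeq2, 311 with no low-count filter, 207 with the replicate block and 0 of 16177 with immunoglobulin genes left out (989 at an unadjusted edgeR p under 0.05; DESeq2 69, limma-voom 0), and ran from 94 to 3336 without 1 library. Same-numbered libraries shared only a number (correlation of deviations 0.06), and the block called 0 class II genes. Removing the length trend turned the sign of H2-Ab1 (-0.083), H2-Eb1 (-0.074), H2-DMb1 (-0.012), Cd74 (-0.10), H2-Oa (-0.067) and Nfyc (-0.048). Leaving out 1 library gave log2 fold changes of -0.20 to 0.19 for H2-Ab1, -0.091 to 0.22 for H2-Eb1, -0.037 to 0.42 for H2-DMa, -0.022 to 0.31 for H2-DMb1, -0.29 to 0.38 for Cd74, -0.0066 to 0.23 for H2-Oa, -1.28 to 0.063 for H2-Eb2, -0.0015 to 0.62 for Rfxap, -0.042 to 0.068 for Nfyc, -0.088 to 0.28 for Spi1, -0.011 to 0.20 for Ifngr1, -0.70 to -0.27 for Ciita, 0.57 to 0.88 for H2-DMb2, 0.013 to 0.41 for H2-Aa and -0.46 to 0.14 for Lgmn. Of the cell type markers, the block called 6 of B cells and 4 of plasmacytoid dendritic cells higher and 4 of macrophages lower, and no low-count filter gave 8, 6 and 4; either called 3 plasma cell markers lower. Without 1 library the median log2 fold change of B cell markers ran from 0.70 to 1.53. That of plasmacytoid dendritic cell markers ran from 0.55 to 1.27, and that of macrophage markers from -0.83 to -0.24. For plasma cell markers it ran from -1.57 to -0.58. The cause of these changes was not tested. Depth limits H2-Ea-ps, at 0 to 3 counts, and H2-Eb2, at about 1 CPM.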

Other observations

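For 8 of 9 genes of MHC class I and the class I pathway, both Ppm1bCKO libraries were above both Ppm1bfl/fl libraries. The share of all tested genes in that direction was 20.6%. The median log2 fold change of the 9 was 0.36, and 0 passed by edgeR, DESeq2 or limma-voom. An unadjusted edgeR p under 0.05 was found for 2 of the 9, beside 6.44% of all tested genes. The median of the 9 was 0.54 without Ppm1bCKO replicate 1 and 0.22 without Ppm1bCKO replicate 2. B2m, the light chain of class I molecules, had 1963 and 2504 CPM in Ppm1bCKO libraries, against 1375 and 1671 CPM in Ppm1bfl/fl libraries (log2 fold change 0.55 ± 0.22, edgeR adjusted p = 0.717). H2-K1, a classical class I heavy chain, had 1351 and 1712 CPM in Ppm1bCKO libraries, against 1053 and 1154 CPM in Ppm1bfl/fl libraries (log2 fold change 0.47 ± 0.21, edgeR adjusted p = 0.717). Whether class I and class II genes differ from each other in this was not tested.

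The 7 monocyte markers had a median log2 fold change of 0.07 and the 7 T cell markers of 0.23. Of each list 0 passed the edgeR threshold, and DESeq2 and limma-voom called 0. In each list 1 gene had an unadjusted edgeR p under 0.05, beside 6.44% of all tested genes. Without Ppm1bCKO replicate 1 the median was 0.15 for monocyte markers and 0.22 for T cell markers. Without Ppm1bCKO replicate 2 these medians were 0.12 and 0.09.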
